A study of Mus musculus with 10 samples.

Results

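The genes described here encode secreted C1q-domain proteins that act at synapses, and a receptor for some of them. They are C1ql1, C1ql2 and C1ql3 of the C1q-like family, Cbln1, Cbln2 and Cbln4 of the cerebellin family, and Grid1, the gene of the delta-type glutamate receptor GluD1. The 7 genes were chosen by name, with earlier results of these data known, and they are 7 of the 27933 gene symbols in the count table. The study profiled single amacrine cells, the inhibitory interneurons of the inner retina, in 10 libraries from Chx10-cre-GFP mice at postnatal day 19, in order to sort the cells into molecular types. Flow sorting kept living cells that lacked GFP and did not stain for CD133 or CD73. Chx10 marks bipolar cells, CD73 rods and CD133 photoreceptors, so the sort selected against those classes. Prom1, the gene of CD133, also marked some of the amacrine cells kept, among them a cluster of 1447 cells. Whether the sort lowered the share of such amacrine cells was not tested. By the labels batch 3 has 4 libraries, batch 2 has 5 and batch 1 has 1, and none of them names the animals behind a library, so the p-values given here speak only of variation from library to library, which may be technical.

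As background, C1q-like proteins and cerebellins are released from axon terminals and span the synaptic cleft. Cerebellins join presynaptic neurexins to delta receptors such as GluD1 on the other side, and cerebellin 4 also binds DCC and neogenin. C1q-like proteins bind the adhesion receptor BAI3, the product of Adgrb3. In the mouse cerebellum C1ql1 is made by climbing fibres and Cbln1 by granule cells, and both are needed for normal synapse number on Purkinje cells. In the mouse hippocampus C1ql2 and C1ql3 from mossy fibres recruit kainate receptors that contain the products of Grik2 and Grik4. Delta receptors resemble glutamate receptors in structure and act mainly as postsynaptic anchors for cerebellins.

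Cells were grouped by the UMIs of a few marker genes, where a UMI is 1 captured RNA molecule counted once. The Slc6a9 gate held 4538 cells with at least 2 UMIs of Slc6a9, the glycine transporter gene of glycinergic cells, and none of Gad1 or Gad2. The Gad gate held 16227 cells with at least 2 UMIs of Gad1 and Gad2 together, the genes that make GABA, and none of Slc6a9. The type gates held 917 cells with at least 5 UMIs of Vip, 1530 with at least 10 of Npy, 1832 with at least 3 of Gjd2, 649 with at least 2 of Chat and Slc18a3 together, and 658 with at least 2 of Slc17a8. Vip and Npy encode neuropeptides, Gjd2 the gap junction protein connexin 36, Chat and Slc18a3 proteins of acetylcholine release, and Slc17a8 a vesicular glutamate transporter. Cells with UMIs of Slc6a9 and also of Gad1 or Gad2 were in neither class gate. Of amacrine cells, 4635 (14.5%) had at least 2 UMIs of Gad1 and Gad2 together and an Slc6a9 UMI. Type gates could overlap each other and the class gates. The Vip, Npy and Chat gates lay mostly in the Gad gate, with 70.9%, 78.0% and 77.7% of their cells there. The Gjd2 gate was mixed, with 50.4% of its cells in the Slc6a9 gate and 11.6% in the Gad gate, and the Slc17a8 gate had 28.9% in the Slc6a9 gate and 8.05% in the Gad gate. No gate took 9582 cells (29.9%).

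The 250 bases before the start of C1ql2 and of Cbln4 are shown because C1ql2 had the largest log2 difference between the class gates of the 7 genes, and Cbln4 the largest rise in a type gate. Both are from RefSeq, build GRCm38.p6, and are written 5′ to 3′ on the strand of the gene, chr1:120340332-120340581 for C1ql2 on the plus strand and chr2:172043467-172043716 for Cbln4 on the minus strand. Capitals mark matches to CANNTG, the E-box bound by helix-loop-helix factors, and to TGACAG, a sequence bound by Meis factors; E-boxes read the same on both strands and TGACAG was searched on both.
C1ql2: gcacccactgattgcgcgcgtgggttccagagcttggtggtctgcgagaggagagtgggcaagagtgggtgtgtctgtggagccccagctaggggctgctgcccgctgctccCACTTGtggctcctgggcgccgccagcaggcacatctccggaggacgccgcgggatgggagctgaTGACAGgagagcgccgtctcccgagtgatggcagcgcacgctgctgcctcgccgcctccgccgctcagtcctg
Cbln4: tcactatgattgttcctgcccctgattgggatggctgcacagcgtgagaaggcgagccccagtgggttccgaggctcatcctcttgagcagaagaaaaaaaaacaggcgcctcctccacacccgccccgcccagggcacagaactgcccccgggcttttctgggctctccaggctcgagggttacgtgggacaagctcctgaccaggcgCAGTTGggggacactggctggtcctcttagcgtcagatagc
The C1ql2 stretch held the E-box CACTTG beginning 138 bases before the start and TGACAG beginning 73 bases before it. The Cbln4 stretch held the E-box CAGTTG beginning 41 bases before the start and no TGACAG. Of 32841 such windows of all genes in the table, 66.2% held an E-box and 15.9% held TGACAG. Neither stretch held the POU octamer ATGCAAAT, found in 1.60% of windows and searched on both strands. These matches are descriptions of the letters, and none was tested for binding.

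Positions are given for GRCm38 from GENCODE release M21. C1ql1 lies on chromosome 11 at 102939264 to 102946688 on the minus strand. C1ql2 lies on chromosome 1 at 120340582 to 120343174 on the plus strand. C1ql3 and Cbln4 are both on the minus strand of chromosome 2, at 13003457 to 13011806 and at 172036233 to 172043466. Cbln1 lies on the minus strand of chromosome 8 at 87468405 to 87472609, and Cbln2 on the plus strand of chromosome 18 at 86711110 to 86718283. Grid1 spans chromosome 14 at 34820108 to 35583379 on the plus strand. All are annotated as protein coding. C1ql1 and Cbln1 lie inside the spans of long noncoding RNAs on the opposite strand, Gm26668 and Gm2694, and whether counting used the strand is not given in the sources used here, so reads of such pairs may not be fully separated.

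The table held 32523 cells and 171257947 UMIs, with 950 to 4738 cells, where the labels give about 6000 recovered per channel, and 6302659 to 26028492 UMIs per library. Clustering without the 7 genes and the gate genes gave 76 clusters, and 3 clusters with bipolar or Müller glia markers, 450 cells (1.38%), were set aside, which left 32073 amacrine cells in 73 clusters. Libraries 5 and 6 shared 312 cell barcodes, 7.005% of the smaller library, and 48.4% of those pairs of cells were in the same cluster. Libraries 2 and 3 shared 59, of which 6.78% were in the same cluster, while the other 43 library pairs shared 3 to 32 barcodes each, of which 1.38% were. The edgeR comparisons and the co-detection of gene pairs were therefore also computed without the cells of barcodes shared within those 2 pairs, an alternative chosen after seeing the data; levels by gate order and by cluster were not. Of 7 amacrine markers the only ones at 0 in the class gates were the transmitter genes that the gates exclude, and the list summed to 3828 to 4640 CPM in Slc6a9-gated cells and 3846 to 5061 CPM in Gad-gated cells.

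The 6 ligand genes were all far lower in the Slc6a9 gate than in the Gad gate, and Grid1 was slightly higher. Levels are CPM, UMIs of the gene per 1000000 UMIs of the gated cells of a library. C1ql1 ran from 77.9 to 129 CPM over the 10 libraries in the Slc6a9 gate, with a median of 98.0 CPM, against 1940 to 2460 CPM with a median of 2118 CPM in the Gad gate. Every library of the Slc6a9 gate lay below every library of the Gad gate, and the log2 fold change was -4.49 ± 0.07 (SE; edgeR quasi-likelihood test, adjusted p = 2.96e-23). C1ql2 ran from 8.29 to 28.6 CPM in the Slc6a9 gate, with a median of 17.4 CPM, against 843 to 1001 CPM with a median of 925 CPM in the Gad gate. Again the ranges did not meet, and at -5.77 ± 0.09 its log2 fold change was the largest in size of the 7 (edgeR adjusted p = 9.90e-23). C1ql3, the scarcest of these 3 in UMIs, ran from 0 to 3.06 CPM in the Slc6a9 gate, against 13.0 to 46.6 CPM in the Gad gate, a log2 fold change of -4.19 ± 0.17 (edgeR adjusted p = 1.78e-15).

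The cerebellins followed the same direction. Cbln1 had at most 3.36 CPM and a median of 0.984 CPM in the Slc6a9 gate, where 16 of its UMIs were counted in 4538 cells, against 33.1 to 50.2 CPM with a median of 37.6 CPM in the Gad gate. Its log2 fold change was -5.28 ± 0.21 (edgeR adjusted p = 8.11e-16). Cbln2 ran from 9.29 to 20.5 CPM in the Slc6a9 gate, with a median of 16.9 CPM, against 457 to 629 CPM with a median of 525 CPM in the Gad gate. That gave a log2 fold change of -5.06 ± 0.06 (edgeR adjusted p = 6.52e-25). Cbln4 ran from 1.42 to 3.36 CPM in the Slc6a9 gate, against 57.0 to 85.0 CPM in the Gad gate, a log2 fold change of -4.89 ± 0.10 (edgeR adjusted p = 1.36e-20). For each of the 6 ligand genes the level was lower in the Slc6a9 gate in 10 of 10 libraries and the ranges did not overlap.

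Grid1, which encodes the receptor end of this system, was sparse everywhere. It ran from 3.45 to 16.0 CPM in the Slc6a9 gate, with a median of 5.73 CPM, against 2.31 to 5.61 CPM with a median of 4.29 CPM in the Gad gate. The ranges overlapped, 9 of 10 libraries were higher in the Slc6a9 gate, and the log2 fold change was 0.69 ± 0.21 (edgeR adjusted p = 0.00621). Without the cells of the Chat, Gjd2 and Slc17a8 gates it was 0.38 ± 0.22 (edgeR adjusted p = 0.152), and in batch 3 alone 0.53 ± 0.28 (edgeR adjusted p = 0.101). All 7 genes passed the threshold of an adjusted p of 0.05, 6 of them lower. That threshold was passed by 60.4% of the 12420 genes tested, and by 29.8% in the lower direction. A bulk level cannot tell fewer cells with the gene from less RNA in each.

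**Figure D1:**
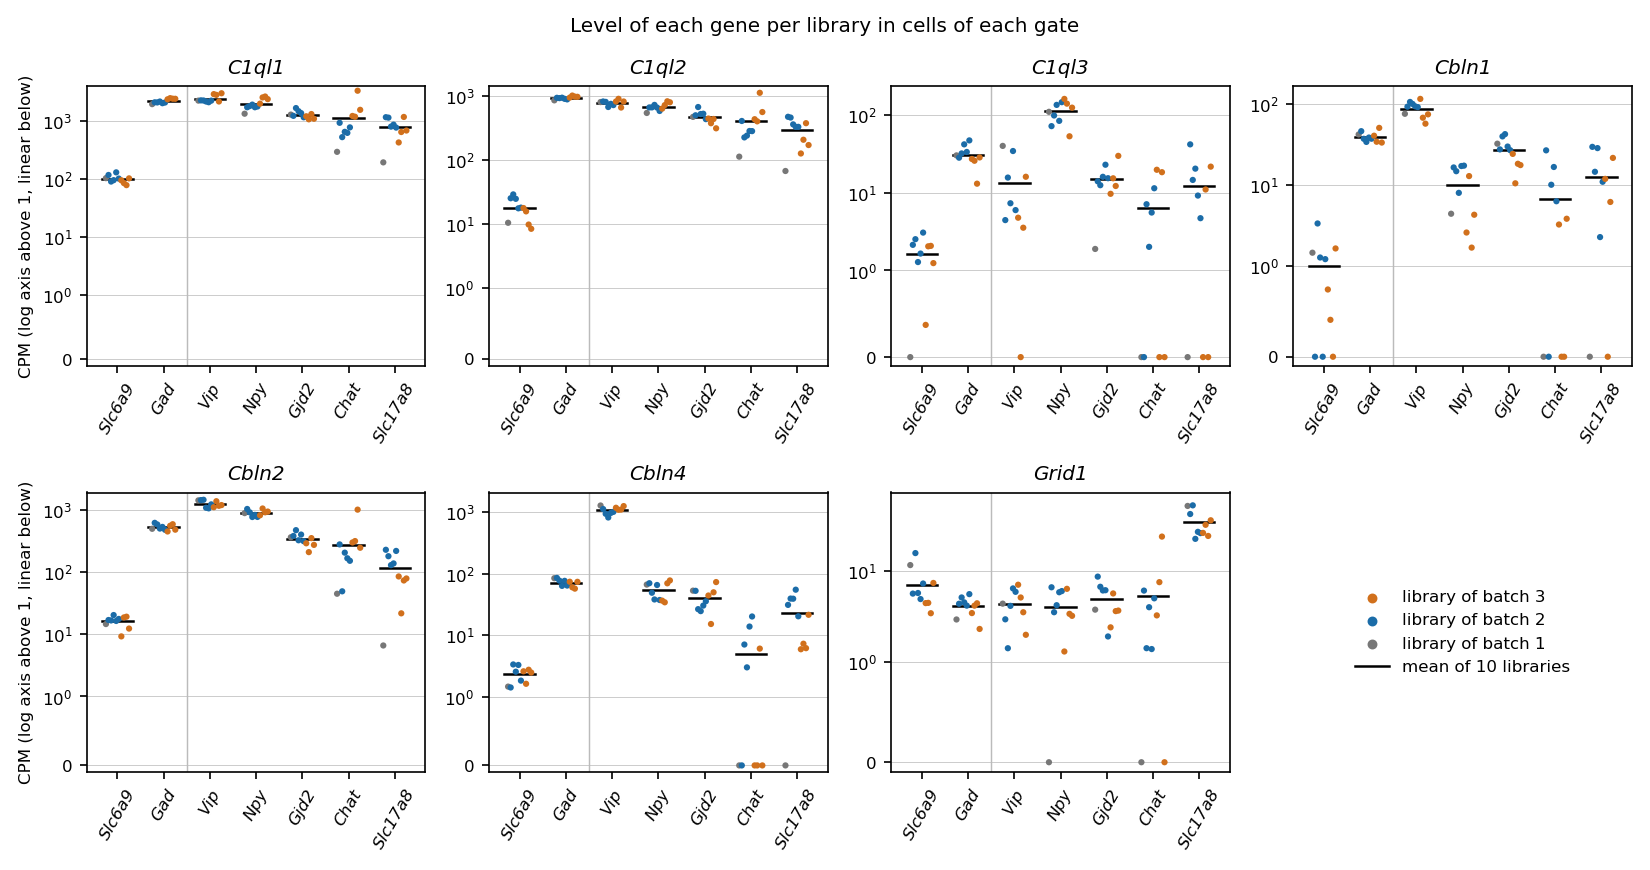
Level of each gene (CPM, log axis above 1 and linear below) in cells of each gate; each point is 1 library, coloured by batch, and each line the mean of 10 libraries. The 6 ligand genes were lower in the Slc6a9 gate than in the Gad gate in every library, Cbln4 averaged 1069 CPM in the Vip gate, C1ql3 111 CPM in the Npy gate and Grid1 34.8 CPM in the Slc17a8 gate.

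Shares of cells with at least 1 UMI gave the same contrast. C1ql1 was found in 27.2% ± 3.27 of Slc6a9-gated cells and in 76.2% ± 2.65 of Gad-gated cells (mean and SD of 10 libraries). After every cell was thinned to 1500 UMIs these shares were 12.6% of Slc6a9-gated and 68.0% of Gad-gated cells, at median depths before thinning of 3663 UMIs in the Slc6a9 gate and 5401 UMIs in the Gad gate. The Slc6a9-gated cells that had C1ql1 held a median of 1 UMI, against 11 UMIs in the Gad-gated cells that had it. C1ql2 was found in 2.32% of thinned Slc6a9-gated cells and 58.3% of thinned Gad-gated cells, and Cbln2 in 2.35% of thinned Slc6a9-gated cells and 33.4% of thinned Gad-gated cells. Without thinning, C1ql2 was found in 5.41% of Slc6a9-gated and 74.1% of Gad-gated cells, and Cbln2 in 5.17% of Slc6a9-gated and 46.6% of Gad-gated cells. Grid1 was found in 1.22% of thinned Slc6a9-gated cells and 0.507% of thinned Gad-gated cells, and without thinning in 2.52% of Slc6a9-gated and 2.33% of Gad-gated cells. Thinning left out 515 cells of the Slc6a9 gate and 957 of the Gad gate. Cbln1, Cbln4 and C1ql3 were found in 0.171%, 0.339% and 0.216% of thinned Slc6a9-gated cells, against 4.20%, 5.19% and 2.37% of thinned Gad-gated cells. Free RNA can give UMIs in cells that do not express a gene. The low shares of Cbln1, Cbln4 and C1ql3 in the Slc6a9 gate are not read as expression. Libraries held 3.15 to 12.3 UMIs of C1ql1 for each UMI of C1ql2 in the Slc6a9 gate, with a median of 5.57. In the Gad gate they held 2.26 to 2.53, with a median of 2.35. For each UMI of Cbln2 they held 4.04 to 10.2 UMIs of C1ql1 in the Slc6a9 gate, with a median of 6.26. In the Gad gate that ratio was 3.32 to 5.15, with a median of 4.13, so its ranges overlapped. The part of free RNA in the low shares of the 6 ligand genes in the Slc6a9 gate was not tested. Nor was its part in the Grid1 shares of either gate.

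Counted per thinned cell, Slc6a9-gated cells carried a mean of 0.180 ± 0.03 of the 6 ligand genes and Gad-gated cells 1.72 ± 0.07 (SD, n = 10 libraries). None of the 6 was found in 82.9% of Slc6a9-gated cells and 13.7% of Gad-gated cells. Among the type gates the mean ran from 0.668 in the Chat gate and 0.716 in the Slc17a8 gate through 0.821 in the Gjd2 gate and 1.92 in the Npy gate to 2.83 in the Vip gate. At least 3 ligand genes were found in 62.9% of Vip-gated cells and 22.3% of Gad-gated cells. Cbln1, Cbln2 and Cbln4 were found together in 5.96% of Vip-gated cells, 0.267% of Gad-gated cells and no thinned cell of the Slc6a9 gate.

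Markers of several other cell types differed between the class gates too. The 7 Müller glia markers, all detected, summed to 419 to 536 CPM in the Slc6a9 gate, against 1086 to 1449 CPM in the Gad gate, and the 5 horizontal cell markers to 448 to 597 CPM in the Slc6a9 gate, against 239 to 276 CPM in the Gad gate. The 4 endothelium markers summed to 39.7 to 79.8 CPM in the Slc6a9 gate, with Cdh5 at 0, against 5.58 to 10.5 CPM in the Gad gate, and the 4 pericyte markers to 0 to 2.13 CPM in the Slc6a9 gate, with Cspg4 at 0, against 11.8 to 32.9 CPM in the Gad gate. The 7 ganglion cell markers had a median sum of 288 CPM in Slc6a9-gated cells, against 523 CPM in Gad-gated cells, with overlapping ranges. So did those of the 8 rod markers, at 63.9 to 147 CPM in Slc6a9-gated cells and 46.2 to 123 CPM in Gad-gated cells. Their part in the differences of the 7 genes was not tested.

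Vip-gated cells had the highest cerebellin levels of any gate. Set against every other amacrine cell, library by library, Cbln4, whose product binds neurexins, DCC and neogenin, ran from 813 to 1272 CPM in the Vip gate, with a median of 1088 CPM, against 16.0 to 24.5 CPM with a median of 19.95 CPM in other cells. The log2 fold change of 5.72 ± 0.05 (edgeR adjusted p = 3.65e-58) was the largest rise of any of the 7 genes in any gate. Cbln2 ran from 1077 to 1480 CPM in the Vip gate and from 302 to 444 CPM in other cells, a rise of 1.77 ± 0.04 on the log2 scale (edgeR adjusted p = 6.81e-40). Cbln1 ran from 56.6 to 114 CPM in the Vip gate and from 22.2 to 37.6 CPM in other cells, a rise of 1.66 ± 0.09 (edgeR adjusted p = 3.18e-22). For all 3 cerebellins the ranges did not overlap and the Vip gate was higher in 10 of 10 libraries.

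The C1q-like genes did not move together in the Vip gate. C1ql1 rose by 0.52 ± 0.03 on the log2 scale, to a mean of 2403 CPM against 1665 CPM in other cells (edgeR adjusted p = 2.77e-18). C1ql2 rose by 0.12 ± 0.04 (edgeR adjusted p = 0.00878), with overlapping ranges of 651 to 891 CPM in the Vip gate and 650 to 754 CPM in other cells; within the Gad gate its log2 fold change was -0.23 ± 0.04 (edgeR adjusted p = 5.91e-07). C1ql3 fell by 1.29 ± 0.21 (edgeR adjusted p = 2.19e-06), to a median of 6.61 CPM against 26.4 CPM in other cells. Grid1 had a log2 fold change of -0.34 ± 0.30 (edgeR adjusted p = 0.481). In all, 6 of the 7 genes passed the test, where 24.6% of 12757 genes did.

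Npy-gated cells stood out in C1ql3 and Cbln2. C1ql3 ran from 52.6 to 159 CPM in the Npy gate, with a median of 115 CPM, against 12.7 to 28.9 CPM with a median of 20.3 CPM in other cells. The 10 libraries of the Npy gate all lay above all 10 of the other cells, and the log2 fold change was 2.40 ± 0.10 (edgeR adjusted p = 2.54e-17). Cbln2 ran from 781 to 1071 CPM in the Npy gate and from 298 to 424 CPM in other cells, a rise of 1.33 ± 0.05 (edgeR adjusted p = 5.69e-19). Cbln1 fell by 1.44 ± 0.15, to a mean of 9.93 CPM against 31.9 CPM in other cells, and was lower in 10 of 10 libraries (edgeR adjusted p = 7.32e-09). C1ql1 rose by 0.23 ± 0.05 (edgeR adjusted p = 0.00110) and was higher in 9 of 10 libraries, but within the Gad gate its log2 fold change was -0.14 ± 0.04 (edgeR adjusted p = 0.00800). C1ql2, Cbln4 and Grid1 had log2 fold changes of -0.07 ± 0.04, -0.05 ± 0.09 and -0.23 ± 0.21 and did not pass; within the Gad gate C1ql2 fell by 0.48 ± 0.04 and Cbln4 by 0.47 ± 0.10. C1ql2 passed in opposite directions by batch, at 0.13 ± 0.05 in batch 3 alone and -0.16 ± 0.03 in batch 2 alone (edgeR adjusted p = 0.0496 and 1.52e-04). In all libraries, the 4 genes that passed compare with 28.2% of 12625 genes tested. Of the Npy gate, 18.04% of cells were also in the Chat gate, and 18.5% lay in cluster 16, which holds most of the Chat gate. The 6 starburst markers summed to 143 to 472 CPM in the Npy gate and 20.6 to 69.1 CPM in all amacrine cells, and their part in these levels was not tested.

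In the Slc17a8 gate Grid1 reached the highest level of any gate while all 6 ligand genes were lower. Grid1 ran from 22.9 to 53.9 CPM there, with a median of 30.1 CPM, against 2.78 to 5.47 CPM with a median of 4.70 CPM in other cells. The 10 libraries of the gate all lay above all 10 of the other cells, and the log2 fold change was 2.84 ± 0.20 (edgeR adjusted p = 2.27e-16). A Grid1 UMI was found in 19.1% of Slc17a8-gated cells, at a median depth of 4788.5 UMIs, and in 3.27% of Npy-gated cells, the gate of lowest Grid1 level, at 7739 UMIs; after thinning the shares were 5.94% of Slc17a8-gated and 0.346% of Npy-gated cells. In the part of the gate that also lay in the Slc6a9 gate, 190 cells, Grid1 had 34.1 CPM, and in the 415 cells of neither class gate it had 34.6 CPM. All 7 genes passed, 6 of them lower, where 24.6% of 13119 genes passed and 14.6% were lower.

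Of the ligand genes in the Slc17a8 gate, Cbln2 fell most, by 1.65 ± 0.12 on the log2 scale, to a mean of 117 CPM against 407 CPM in other cells (edgeR adjusted p = 8.45e-16). C1ql1 fell by 1.19 ± 0.10 and C1ql2 by 1.30 ± 0.10, and for these 3 genes the ranges of the gate and of other cells did not overlap. C1ql3, Cbln1 and Cbln4 fell by 0.98 ± 0.24, 1.05 ± 0.21 and 1.03 ± 0.17. Levels varied widely among libraries of the gate, from 192 to 1167 CPM for C1ql1 and from 6.63 to 231 CPM for Cbln2. They also differed with transmitter class, since C1ql1 had 225 CPM in the 190 cells also in the Slc6a9 gate, against 1417 CPM in the 53 also in the Gad gate. Set against other Slc6a9-gated cells only, C1ql1 was higher in Slc17a8-gated cells, with a log2 fold change of 1.24 ± 0.13 (edgeR adjusted p = 6.50e-15), so its direction turned with the comparison group. C1ql2 had a log2 fold change of -0.15 ± 0.42 in that comparison and lost its call (edgeR adjusted p = 0.862). Of the gate, 90.7% of cells lay in 1 cluster, number 11.

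In the Gjd2 gate, at its threshold of 3 UMIs, 5 of the 7 genes were modestly lower than in other cells. C1ql1 ran from 1062 to 1659 CPM in the Gjd2 gate and from 1566 to 1809 CPM in other cells, and fell by 0.38 ± 0.04 on the log2 scale (edgeR adjusted p = 1.95e-07). C1ql2 fell by 0.59 ± 0.06 to a mean of 463 CPM, against 720 CPM in other cells, C1ql3 by 0.85 ± 0.14, Cbln4 by 0.47 ± 0.12 and Cbln2 by 0.20 ± 0.06. In batch 3 alone C1ql3 and Cbln4 lost their calls, with log2 fold changes of -0.43 ± 0.20 and -0.07 ± 0.15 (edgeR adjusted p = 0.0988 and 0.762). These 5 of 7 genes passed in all libraries, all lower, where 45.7% of 12499 genes passed and 23.8% were lower, and Cbln1 and Grid1 had log2 fold changes of -0.08 ± 0.12 and 0.01 ± 0.19. Within the gate C1ql1 averaged 98.7 ± 15.9 CPM in the 924 cells also in the Slc6a9 gate, 3482 ± 310.5 CPM in the 212 cells also in the Gad gate and 1367 ± 155 CPM in the 696 cells in neither (SD, n = 10 libraries). Cbln2 averaged 9.45 CPM in the cells also in the Slc6a9 gate, 1032 CPM in those also in the Gad gate and 302 CPM in those in neither. Median depths in that order were 4836.5, 9657 and 8407.5 UMIs. Cells in neither can carry UMIs of both classes, and the part of such cells in these levels was not tested. Against other Slc6a9-gated cells alone, C1ql1 had a log2 fold change of 0.09 ± 0.08 (edgeR adjusted p = 0.393). Of the 3 genes that could be tested there 1 was called, where 3806 of 8736 genes were. That gene was Cbln2, with a log2 fold change of -0.97 ± 0.27 (edgeR adjusted p = 0.00308). C1ql2 had one of -0.27 ± 0.21 there (edgeR adjusted p = 0.320). With the Gjd2 threshold doubled the differences from other cells were larger for C1ql1, at -1.54 on the log2 scale, and for Cbln1. Cbln1 then had a log2 fold change of -1.14 ± 0.23 and gained a call (edgeR adjusted p = 2.81e-04). In that setting 6 of the 7 genes passed, where 4745 of 12409 genes did and 2676 were lower.

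Chat-gated cells were low in 6 of the 7 genes, where 33.1% of 12937 genes passed the test and 18.4% were lower, but libraries differed widely. Cbln4 ran from 0 to 20.2 CPM in the Chat gate, with a median of 1.51 CPM, against 44.1 to 72.5 CPM with a median of 55.5 CPM in other cells, and fell by 2.93 ± 0.26 on the log2 scale (edgeR adjusted p = 2.83e-11). It was the only one of the 7 whose ranges did not overlap there. C1ql3 fell by 2.30 ± 0.28 and Cbln1 by 1.84 ± 0.26. C1ql1 ran from 292 to 3304 CPM in the Chat gate, with a median of 848 CPM, against 1592 to 1828 CPM with a median of 1729 CPM in other cells, and fell by 0.86 ± 0.15 (edgeR adjusted p = 3.06e-05). C1ql2 fell by 0.98 ± 0.14 and Cbln2 by 0.82 ± 0.20, and Grid1 had a log2 fold change of -0.37 ± 0.37 (edgeR adjusted p = 0.501). The value of 3304 CPM came from library 9, which had 17 cells in the gate. Without it, an alternative chosen after seeing the data, C1ql1 fell by 1.04 ± 0.10 and Cbln2 by 1.09 ± 0.14. In that setting 6 of 7 genes passed, where 4427 of 12816 genes did. With the threshold doubled C1ql1 fell by 2.17 ± 0.12, Cbln2 by 2.45 ± 0.16 and Grid1 by 1.86 ± 0.54. In batch 3 alone C1ql1 had a log2 fold change of -0.06 ± 0.08 and Cbln2 one of 0.20 ± 0.10. There 3 of the 7 genes passed, where 1519 of 12621 genes did.

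The Chat gate held cells of unlike C1ql1 level. A single cluster, number 16, held 82.1% of the gate, and the next, number 17, held 5.86% and was among the 3 clusters with the most C1ql1. Starburst markers, a list of 6, summed to 826 to 1545 CPM in the Chat gate and 20.6 to 69.1 CPM in all amacrine cells. The 8 bipolar markers summed to 779 to 1378 CPM in the Chat gate and 134 to 200 CPM in all amacrine cells; that list holds Isl1, which starburst cells also express. Of the Chat gate, 42.5% of cells were also in the Npy gate. The part of other cells in the Chat gate levels was not tested.

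**Figure D2:**
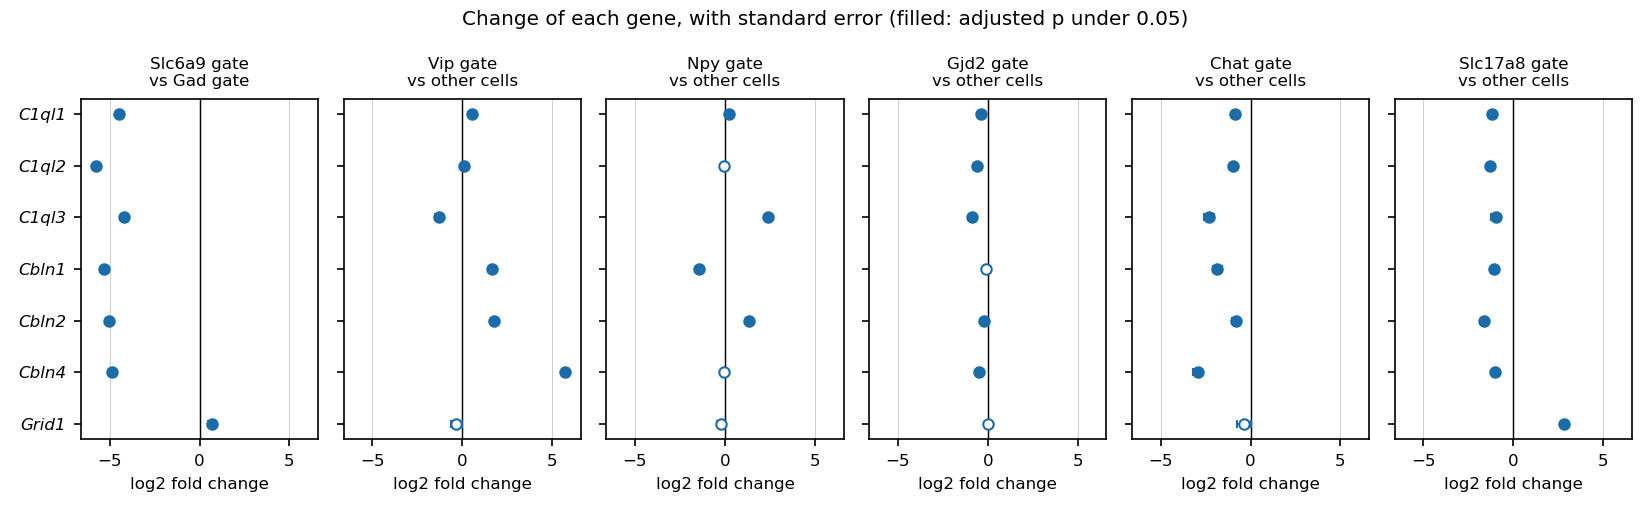
Log2 fold change of each gene in 6 comparisons, with its standard error; filled points passed an adjusted p of 0.05 and open points did not. Cbln4 in the Vip gate (5.72) and Grid1 in the Slc17a8 gate (2.84) lie far to the right, and the 6 ligand genes lie between -5.77 and -4.19 in the Slc6a9 gate.

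Ranked by mean level, the gates fell in a different order for each gene. Neighbours in each order were compared by an exact permutation test over the 10 libraries, 42 comparisons with p-values adjusted together; the smallest p that 10 libraries allow is 0.00195. Of the 42, 21 passed and 21 did not. C1ql1 was highest in the Vip gate at 2403 ± 343 CPM (SD, n = 10), then the Gad gate at 2195 ± 189 CPM (exact permutation test, adjusted p = 0.0430, 9 of 10 libraries), the Npy gate at 1972 ± 411 CPM and the Gjd2 gate at 1279 ± 182 CPM. Below it the Gjd2 gate did not separate from the Chat gate, nor the Chat gate from the Slc17a8 gate (exact permutation test, adjusted p = 0.232 and 0.331); the Gjd2 and Slc17a8 gates were not compared with each other. The Slc6a9 gate came last, lower than the Slc17a8 gate in 10 of 10 libraries. C1ql2 was highest in the Gad gate at 922 ± 46.1 CPM, ahead of the Vip gate at 767 ± 74.6 CPM (exact permutation test, adjusted p = 0.00746, 10 of 10 libraries). Cbln2 was ordered Vip, Npy, Gad and Gjd2 at 1274, 908, 537 and 343 CPM, each step in 10 of 10 libraries (exact permutation test, adjusted p = 0.00746). Below the first 2 gates of C1ql3, Npy and Gad, and the first gate of Grid1, Slc17a8, most neighbours did not separate; for Grid1 none of the 6 other gates differed from its neighbour, where levels ran down to 4.07 CPM in the Npy gate with the Slc6a9 gate highest at 7.13 CPM. Neighbouring gates can share cells, since most Vip and Npy cells are also Gad cells.

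Over the 73 amacrine clusters, C1ql1 and C1ql2 were broad, and C1ql3, Cbln1 and Cbln4 were concentrated in few. The 3 highest clusters held 15.1% of all C1ql1 UMIs, in 4.16% of cells, and 13.6% of C1ql2 UMIs, in 6.10% of cells. For C1ql3 they held 76.6% of UMIs in 3.38% of cells, for Cbln4 69.9% in 3.68%, for Cbln1 42.01% in 3.86% and for Cbln2 21.8% in 3.41%. The median cluster had 489 CPM of C1ql1, against 5705 CPM in its highest cluster, and 2.95 CPM of C1ql3, against 649 CPM in its highest. All 10 of the highest clusters of each ligand gene held more Gad-gated than Slc6a9-gated cells, as did 7 of the 10 highest for Grid1. The Gad gate held 50.6% of all amacrine cells and the Slc6a9 gate 14.1%. The share of all 73 clusters with more Gad-gated cells is not given here, so these counts are not read as a lean of the genes.

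Clusters are numbered, and named here only by their leading genes. Their levels are pooled over libraries unless a mean of libraries is named. C1ql1 and Cbln2 were both highest in cluster 42, led by Tpm2, Cdkn1c and Cpne4, with 5705 CPM of C1ql1 and 2362 CPM of Cbln2. Every one of its 341 cells had a C1ql1 UMI, and 54.3% of them were in the Npy gate. Cluster 17, led by Cpne4, Tbx3os1 and Mfap5, was among the 3 highest for C1ql1 at 4707 CPM, for C1ql2 at 2178 CPM and for Cbln2 at 2011 CPM. Cluster 36, led by Nefm, Lynx1 and Akap12, was close to cluster 17 for C1ql1, at 4730 CPM; as a mean of libraries it had 4662 ± 471 CPM and cluster 17 had 4915 ± 658 CPM (SD, n = 10), so their order turned. C1ql2 was highest in cluster 52, led by Fam19a1, Gm3764 and Steap3, at 2603 CPM, and was also high in cluster 3, led by Pantr1, Pou3f3 and Cbfa2t3, at 1904 CPM. Cluster 60, led by Npy, Tac1 and Cngb3, was level with cluster 17 for Cbln2, at 2009 CPM.

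C1ql3 was highest in cluster 64, led by Nos1, C1ql3 itself and Gal, at 649 CPM and in 92.5% of its 120 cells. Nos1 encodes the neuronal nitric oxide synthase and Gal the neuropeptide galanin. Cluster 18, led by C1ql3, Elavl2 and Adora1, held 422 CPM and 39.6% of all C1ql3 UMIs, and cluster 37, led by Npy, Pou3f1 and C1ql3, held 389 CPM, with 93.1% of its cells in the Npy gate. Since C1ql3 and the gate genes were left out of the clustering, these clusters were found without them, but genes that go with them remained.

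Cbln1 was highest in cluster 21, led by Gm2694, Pdgfra and Cbln1, at 348 CPM and in 80.1% of its 549 cells. Only 1.09% of those cells were in the Vip gate. Its next clusters were 27, led by Vip, Abi3bp and Plscr1, at 219 CPM, and 51, led by Chl1, Otor and Nr4a2, at 191 CPM. Cbln4 was highest in cluster 22, led by Vip, Cbln4 and Plscr1, at 1795 CPM, which held 49.6% of all Cbln4 UMIs and had 84.6% of its cells in the Vip gate. Cluster 54, led by Cbln4, Gabrb1 and Nr4a2, had 1122 CPM of Cbln4, in 97.1% of its 204 cells, while 0.490% of them were in the Vip gate. Cluster 27 followed for Cbln4, at 404 CPM.

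Grid1 reached 42.1 CPM in cluster 45, led by Igfbp7, Fam19a1 and Gm12027, and 37.0 CPM in cluster 11, led by Slc17a8, Car3 and A930001A20Rik. As means of libraries these were 41.9 ± 19.2 CPM and 38.8 ± 11.6 CPM (SD, n = 10), closer than their spread. Cluster 45 had 20.9% of its 292 cells in the Gad gate, 5.82% in the Slc6a9 gate and none in the Slc17a8 gate, so the Grid1 level of the Slc17a8 gate was matched outside it. Well below them, cluster 12, led by Cartpt, Rprm and Pantr1, had 17.9 CPM and cluster 57, led by Prom1, Slc6a9 and Ptprf, 17.4 CPM; as means of libraries cluster 57 was the higher, with 18.1 ± 20.5 CPM over 5 libraries against 17.3 ± 6.54 CPM over 10, so neither holds the place. Cluster 11 alone held 15.7% of all 883 Grid1 UMIs.

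**Figure D3:**
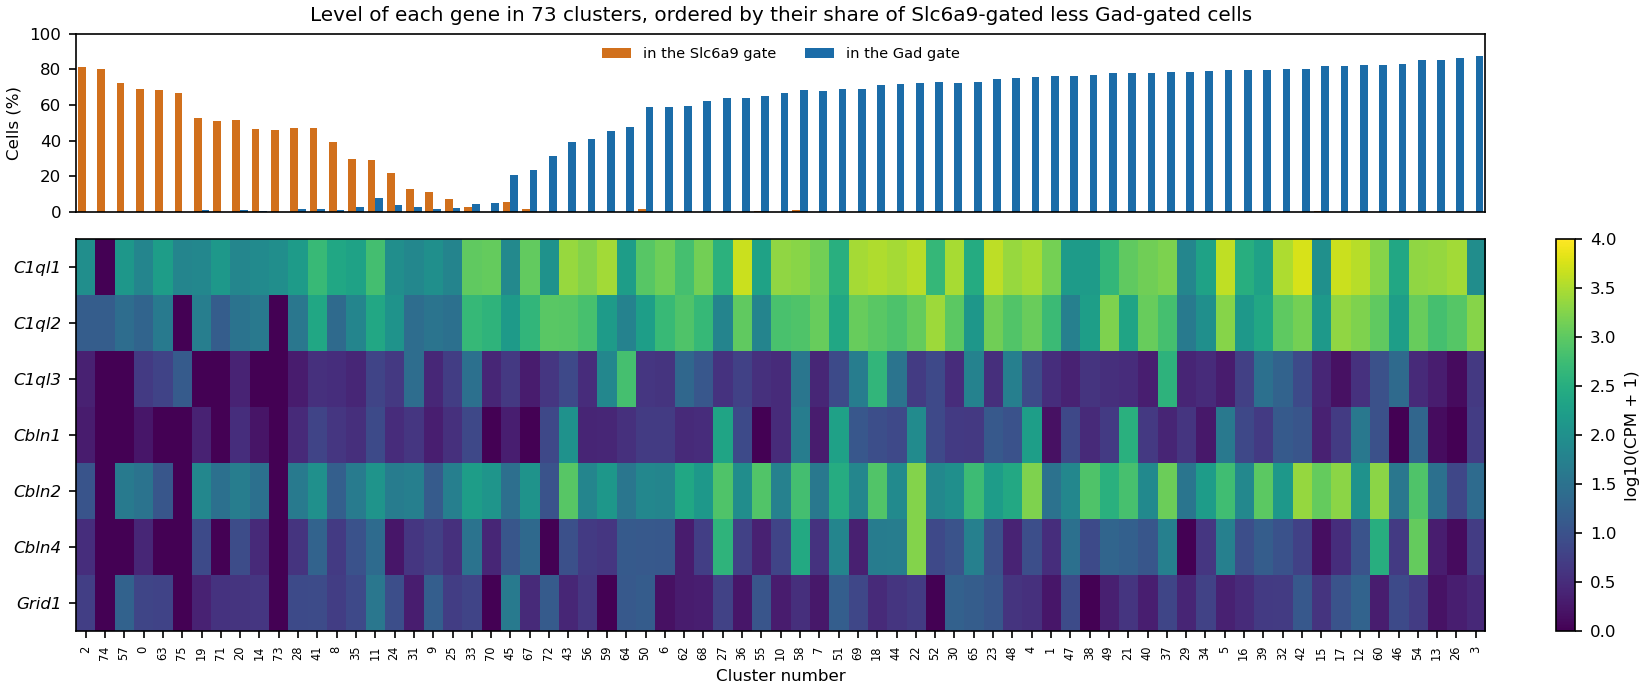
Top, share of cells (%) of each of 73 clusters in the Slc6a9 gate and in the Gad gate; bottom, level of each gene as log10(CPM + 1) in the same clusters, numbered along the axis. Ligand genes are low in the clusters at the left, rich in Slc6a9-gated cells, C1ql1 and C1ql2 are high in many clusters at the right, and C1ql3, Cbln1 and Cbln4 in few.

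The genes whose level over clusters was most like that of each gene were ranked by Pearson correlation of log2(CPM + 10) among 7632 genes with at least 50 CPM in a cluster. These are descriptions over 73 clusters that share libraries and depth. C1ql1 and C1ql2 were near the top of each other's ranking, at r = 0.81. C1ql1 was followed most closely by Fgf14 (r = 0.84), then C1ql2, Camk2g (0.80), Zfp503 (0.79) and Pcbd1 (0.79). C1ql2 was followed by Steap3 (r = 0.84), Fgf14 (0.82), C1ql1, Rd3l (0.81) and Cnksr2 (0.77). For C1ql3 the 5 nearest were Elavl2 (r = 0.70), Ifi27l2a (0.64), Lifr (0.61), Arhgdig (0.58) and Ctxn1 (0.58). Cbln1 was nearest to Gm2694 (r = 0.96), the noncoding gene that overlaps it, then to Rasgrp1 (0.70), Nxn (0.66), Hspb8 (0.62) and Chst2 (0.60). Cbln2 was nearest to St6gal2 (r = 0.71), Slc6a11 (0.70), a GABA transporter gene, Clmp (0.70), Camk1d (0.68) and Zfp503 (0.68). Cbln4 was nearest to Vip (r = 0.76), Abi3bp (0.70), Aqp1 (0.65), Sstr2 (0.63) and Hn1 (0.63). For Grid1, whose own level was under 50 CPM in all clusters, they were Rap2b (r = 0.50), Lhx2 (0.48), Slc16a14 (0.48), Gpc3 (0.47) and Tcf7l2 (0.46). Among the 3 cerebellins r was 0.52 to 0.55, and between Grid1 and the ligand genes -0.08 to 0.06.

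Within single cells of the Gad gate, all thinned to 1500 UMIs, pairs of ligand genes were often found together. A UMI of C1ql2 was found in 70.1% ± 1.36 of cells with C1ql1 and in 33.4% ± 2.77 of cells without it (SD, n = 10), a difference of 36.7 percentage points. Cbln2 was found in 67.0% ± 3.82 of cells with Cbln1 and 32.0% ± 2.29 of cells without it, a difference of 35.1 points. Both differences were seen in 10 of 10 libraries (exact permutation test, adjusted p = 0.00830). Before adjustment both had 0.00195, the smallest exact p that 10 libraries allow. Cbln2 was found in 51.6% ± 13.5 of cells with C1ql3 and 32.96% ± 2.31 of cells without it, in 9 of 10 libraries (exact permutation test, adjusted p = 0.0199). Thinned to 1000 UMIs, where 8 libraries gave a value, this difference was 17.1 points and did not pass (exact permutation test, adjusted p = 0.0590). Cbln4 was found in 11.7% ± 1.52 of cells with Cbln2 and 1.94% ± 0.433 of cells without it, and in 6.55% of cells with C1ql1 and 2.35% of cells without it.

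Other pairs were found together less often than apart. Cbln1 was found in 3.54% ± 0.675 of cells with C1ql2 and 5.12% ± 1.54 of cells without it, lower in 10 of 10 libraries. It was found in 1.25% ± 1.44 of cells with C1ql3 and 4.26% ± 0.817 of cells without it, where 7 cells had both; thinned to 1000 UMIs this difference did not pass (-1.89 points, 8 libraries, exact permutation test, adjusted p = 0.163). Of 34 combinations of pair and gate that gave a value, 12 passed the threshold, all in the Gad gate, 10 higher and 2 lower. The difference for C1ql2 and Cbln1 was -1.58 points at 1500 UMIs and -0.405 points without thinning (exact permutation test, adjusted p = 0.772). None of the 6 pairs with Grid1 passed in the Gad gate at 1500 UMIs, where Grid1 was found in 0.507% of thinned cells. Without thinning Cbln1 with Grid1 did pass, at 1.23 points, higher in 9 of 10 libraries (exact permutation test, adjusted p = 0.0427). In the Slc6a9 gate 13 pairs had a value and none passed at 1500 UMIs. Pairs with C1ql2 as the first gene had 4 libraries there, and pairs with Cbln2 first had 3. The smallest exact p is then 0.125 and 0.25, so those pairs could not pass and nothing is concluded from them. For C1ql1 with C1ql2, over 10 libraries, C1ql2 was found in 3.36% of cells with C1ql1 and 2.14% of cells without it, 16 cells having both. Counting only cells with at least 2 UMIs of a gene, without thinning, this pair did pass, with 4.15% ± 5.45 of cells with C1ql1 and 0.324% ± 0.346 of cells without it, higher in 7 of 10 libraries, 10 cells having both (exact permutation test, adjusted p = 0.0339).

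**Figure D4:**
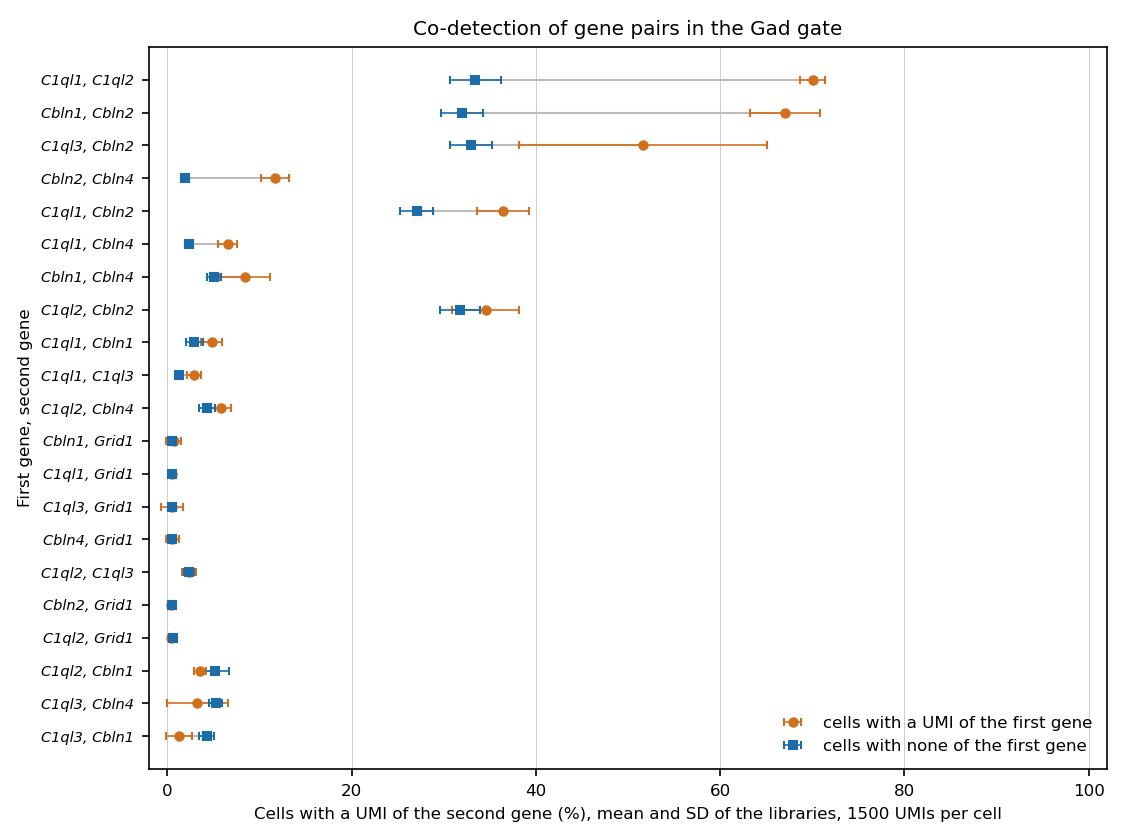
Share of Gad-gated cells (%) with a UMI of the second gene of a pair, among cells with the first gene (circles) and without it (squares); bars are the SD of 10 libraries and cells were thinned to 1500 UMIs. C1ql1 with C1ql2 (70.1% against 33.4%) and Cbln1 with Cbln2 (67.0% against 32.0%) lie farthest apart, and pairs with Grid1 lie near 0.

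Levels also moved with batch. In the Gad gate C1ql1 averaged 2404 ± 45.3 CPM in the 4 libraries of batch 3 and 2079 ± 49.1 CPM in the 5 of batch 2 (SD), with ranges apart and a log2 fold change of 0.26 ± 0.04 (edgeR adjusted p = 1.49e-05). C1ql2 averaged 963 ± 29.2 CPM in batch 3 and 905 ± 23.4 CPM in batch 2, a rise of 0.14 ± 0.04 (edgeR adjusted p = 0.00390), and C1ql3 fell by 0.56 ± 0.16 (edgeR adjusted p = 0.00747). These 3 of 7 genes passed, where 47.5% of 13000 genes did. In the Slc6a9 gate 3 of the 7 genes could be tested, and C1ql2 fell by 0.74 ± 0.20 (edgeR adjusted p = 0.00412), to 12.7 ± 4.45 CPM in batch 3 against 22.6 ± 4.88 CPM in batch 2; 30.7% of 9930 genes passed there. The gap between the class gates was wider in batch 3 for both genes. The log2 fold change of the Slc6a9 gate against the Gad gate was -4.73 in batch 3, against -4.29 in batch 2, for C1ql1, a difference of -0.43 ± 0.08 (edgeR adjusted p = 7.99e-05), and for C1ql2 it was -6.20 in batch 3, against -5.33 in batch 2, a difference of -0.86 ± 0.18 (edgeR adjusted p = 3.18e-04). These 2 passed among 7 genes, where 7.42% of 12887 genes did. All 6 ligand genes were lower in the Slc6a9 gate within batch 3 and within batch 2. Batch 1 had 1 library and was not tested alone.

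The other genes of the pathway, 23 taken from a list of family members, binding partners and synaptic organisers, showed no such uniform direction. In the Slc6a9 gate against the Gad gate 6 of the 21 tested were higher, 13 lower and 2 not called, where 60.4% of all genes passed and 29.8% were lower, with a median log2 fold change of -0.37 beside 0.02 over all genes tested. Of the family, C1ql4 and Cbln3 were too low to test. Among 8 binding partners 4 were higher and 3 lower. Grik2 rose by 1.14 ± 0.08 and Grik4 fell by 2.52 ± 0.31 (edgeR adjusted p = 6.80e-11 and 3.00e-07); both encode kainate receptor subunits. Adgrb3, the C1q-like receptor gene, had 94.4 to 130 CPM in the Slc6a9 gate, against 125 to 158 CPM in the Gad gate, and fell by 0.36 ± 0.04; it is named after its values were seen.

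Among 12 other organisers 10 were lower and 1, Adgrb1, was higher in the Slc6a9 gate, beside the 29.8% of all genes tested that were lower. Nptx1 fell by 2.56 ± 0.10 and Nptx2 by 2.57 ± 0.09 on the log2 scale; both encode secreted pentraxins that gather AMPA receptors. Nptxr, the gene of their membrane-bound relative, fell by 1.40 ± 0.07. Lrrtm2, a postsynaptic neurexin partner, fell by 1.10 ± 0.09, and Adgrb2, a relative of Adgrb3, by 1.25 ± 0.11. In the type gates the same 21 genes were counted beside all genes tested. In the Vip gate 6 were higher and 6 lower, where 24.6% of all genes passed in either direction, and in the Npy gate 6 were higher and 8 lower, where 28.2% passed. In the Gjd2 gate 5 were higher and 9 lower, where 45.7% passed and 23.8% were lower. In the Chat gate 2 were higher and 13 lower, where 33.1% passed and 18.4% were lower, and in the Slc17a8 gate 5 were higher and 7 lower, where 24.6% passed and 14.6% were lower.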

How the data were processed

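The deposited table held raw UMI counts per gene and cell, which the authors made from 10x Chromium 3′ v2 libraries with Cell Ranger 2.1.0 on mm10, per the submitters' processing notes; no source used here gives the annotation, the cell filters, the strand handling or whether doublets were taken out. The 7 genes, gates and lists were chosen with earlier results of these data known. All cells were kept (at least 601 genes and 748 UMIs) and no doublet caller was run. Cells were clustered (scanpy 1.11.5, Leiden resolution 3, 50 components of 2973 genes) without the 7 genes, the gate genes and their partners. Counts were summed per library and gate and tested with edgeR 4.0.16 (quasi-likelihood, TMM, low-count filter, library as a block, since each library holds both sides; Benjamini-Hochberg over all genes tested). In simulated data for the Slc6a9 against Gad comparison, 200 of 9529 genes were changed by at least 2-fold. The fit recovered 200 of 200, with 6 false calls. Smaller changes, the scarcest genes and the type gates were not simulated. Detection and co-detection used cells thinned to 1500 UMIs, and pairs and gate orders an exact two-sided permutation test over libraries. Alternatives were DESeq2 1.42.0, its size factors, no filter, no block, each batch alone and all cells, those set aside included. Others were doubled thresholds, the same transmitter class only, other thinning, Leiden resolution 1.5 and libraries left out. Added after seeing the data were removal of shared barcodes and of library 9 from the Chat gate. Named genes were the members, their 3 highest clusters, the 5 most similar genes, and listed pathway genes that changed at least 2-fold between class gates. Median depth was 4210 UMIs per cell and 6302659 to 26028492 UMIs per library. Where a share has a spread, it is the SD over libraries. Values of some listed genes are not reported here.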

Additional observations from a re-analysis of the deposited data

Results flagged for a closer look

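In the Chat gate, library 9 with 17 cells lay far from the other 9 libraries for 4 genes. It had 3304 CPM of C1ql1, where the nearest library had 1548 CPM, 1106 CPM of C1ql2, where the nearest had 553 CPM, and 1027 CPM of Cbln2, where the nearest had 320 CPM. Its Grid1 level of 24.3 CPM came from 4 UMIs. C1ql3 in the Slc17a8 gate was 41.4 CPM in library 2, where the nearest library had 21.5 CPM. Cbln1 in the Slc6a9 gate was 3.36 CPM in library 3, from 4 UMIs. These 6 are of 49 groups of 10 libraries examined, and chance gives such a gap in about 1 of 20.

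The log2 difference between the Slc6a9 gate and the Gad gate itself differed between batch 3 and batch 2, by -0.43 ± 0.08 for C1ql1 (edgeR adjusted p = 7.99e-05) and by -0.86 ± 0.18 for C1ql2 (edgeR adjusted p = 3.18e-04).

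The 450 cells set aside as bipolar or Müller glia clusters entered the gate comparisons only in the alternative that kept all cells. They held RNA of all 7 genes. Over 8 libraries with enough of them, levels averaged 1529 ± 245 CPM of C1ql1, 616 ± 57.5 CPM of C1ql2, 18.6 ± 16.1 CPM of C1ql3, 15.8 ± 7.13 CPM of Cbln1, 139 ± 72.4 CPM of Cbln2, 15.5 ± 13.3 CPM of Cbln4 and 9.33 ± 6.42 CPM of Grid1 (SD).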

How the results depend on the processing

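The 6 ligand genes remained lower in the Slc6a9 gate, and Cbln4, Cbln2 and Cbln1 higher in the Vip gate, C1ql3 and Cbln2 higher in the Npy gate and Grid1 higher in the Slc17a8 gate, past the threshold in every alternative run. Of the log2 values of the 7 genes recomputed, 579 kept direction and call, 32 turned sign, 14 lost the call and 8 gained it. In batch 3 alone the genes called were 1905 in the Vip gate (3138 in all libraries), 2020 in the Npy gate (3557) and 2041 in the Slc17a8 gate (3230). In the Chat gate they were 1519 of 12621 (4279 in all libraries), with 3 of the 7 genes among them. Within the transmitter class the genes called were 3806 of 8736 in the Gjd2 gate (5714 in the main comparison), with 1 of the 3 members tested. In the Slc17a8 gate they were 1863 of 8097, with 2 of the 3 members tested. With no replicate block, that is without pairing sides by library, 2196 genes were called in the Npy gate. Of the 7 genes 4 were called in the Gjd2 gate, where 4472 of 11541 genes were. In the Chat gate 5 of the 7 were called, where 3791 of 11365 genes were. Cbln2 lost its call in the Gjd2 and Chat gates (-0.17 and -0.67). Leaving out 1 library gave 1 to 2 members called between batches in the Slc6a9 gate. The 2 were called without library 3, where 2708 of 9859 genes were. The highest Cbln4 cluster averaged 1336 CPM at Leiden resolution 1.5 (1870 at 3).

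These signs turned, and the cause was not tested. Within the class: C1ql2 -0.23 and Grid1 0.28 in the Vip gate, C1ql1 -0.14 and Grid1 0.26 in the Npy gate, C1ql1 0.095 in the Gjd2 gate and 1.24 in the Slc17a8 gate. In batch 3 alone: C1ql2 0.13, which passed there, and Cbln4 0.12 in the Npy gate, and Grid1 -0.15 in the Gjd2 gate. In batch 3 alone the Chat gate had Cbln2 0.20 and Grid1 0.70, and in batch 2 alone the Gjd2 gate had Cbln1 0.092. With doubled thresholds: C1ql2 0.031, Cbln4 0.21 and Grid1 0.092 in the Npy gate and Grid1 -0.32 in the Gjd2 gate, where Grid1 was also -0.0085 with DESeq2, -0.0012 with no filter and -0.018 without shared barcodes. Leaving out a library gave Cbln1 -0.039 to 0.14 and Cbln2 -0.080 to 0.041 between batches in the Gad gate, and, for the batch difference of the class contrast, C1ql3 -0.40 to 0.33, Cbln1 -1.38 to 0.15, Cbln4 -0.18 to 0.14 and Grid1 -0.60 to 0.17; none of these was called. C1ql3 with Cbln4 in the Gad gate turned to 11.0 points without thinning and then passed (exact permutation test, adjusted p = 0.00553). C1ql2 with C1ql3 gained a call there without thinning, at 2.09 points (exact permutation test, adjusted p = 0.0255). With at least 2 UMIs it also passed, at 1.96 points (exact permutation test, adjusted p = 0.0138). The pairs past the threshold numbered 8 when thinned to 1000 UMIs (12 at 1500), where C1ql1 with Cbln1 (adjusted p = 0.311, exact permutation test) and Cbln1 with Cbln4 (0.0598) also lost their calls, and 11 without shared barcodes, where C1ql2 with Cbln4 did (0.0553). Other calls lost were Grid1 in the Slc6a9 gate with doubled thresholds (0.48), C1ql2 in the Vip gate in batch 2 alone (0.031), C1ql1 in the Npy gate (0.23) and C1ql3 between batches in the Gad gate (-0.57) with DESeq2, and C1ql2 in the Chat gate in batch 3 alone (-0.24).

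Depth limits Grid1 most, with 883 UMIs in all amacrine cells, and C1ql3, Cbln1 and Cbln4 in the Slc6a9 gate, with 27, 16 and 39.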
